A study of Mus musculus with 12 samples.

Results

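The sperm tail is driven by the axoneme, a ring of doublet microtubules around a central pair, and the genes for its dyneins, radial spokes, central pair, doublet proteins and tektins were followed in mouse testis after busulfan and transfer of gut microbiota. The members were chosen by gene symbol, matched through the NCBI Gene ID of each row. They number 40, and 40 of the 40 were found among the 22221 rows of the expression table. RNA sequencing had been carried out on testis of ICR mice, an outbred stock, in 12 libraries that form 4 groups of 3. Con is the untreated group. Sa, IMC and IMA10 all received busulfan, a DNA-alkylating compound toxic to germ cells, as 1 dose at 3 weeks of age. Sa then received saline, IMC received gut microbiota from mice given ddH2O, and IMA10 received gut microbiota from mice given alginate oligosaccharide at 10 mg per kg body weight. In IMC and IMA10 microbiota were given for 2 weeks and testes were taken after 3 further weeks. The collection time of Sa and the age of the untreated mice are not stated in the labels used here. The untreated libraries carry another name prefix than the busulfan libraries, so that a batch and the absence of busulfan cannot be told apart. The labels speak of cultured testis at RNA isolation without describing a culture. They do not say that replicates are separate animals, so the spread behind each p-value is that of these libraries and may be technical.

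Dynein arms are the motors of the axoneme: outer and inner arms, each built on heavy chains with ATPase activity, walk along the neighbouring doublet. Radial spokes reach from the doublets to the central pair and pass mechanical signals to the dyneins, the nexin link ties neighbouring doublets together, and tektins form filaments inside the doublets. In testis these genes are transcribed mainly in meiotic and haploid germ cells. Some of them also serve the motile cilia of airway, oviduct and brain.

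Values are FPKM, that is fragments scaled by transcript length and by library size, as deposited by the authors. The read depth of each library is unknown. Differences are given on the log2(FPKM + 1) scale, which understates the change of genes with low values. They were tested with limma over the 15472 genes that reached 1 FPKM in 3 or more libraries, at a Benjamini-Hochberg adjusted p under 0.05. Replicate 3 of IMA10 stood apart from the other busulfan libraries. Its score on principal component 1 (88.6% of the variance) was -81.1, against 24.2 to 127.6 for the other busulfan libraries and -167.4 to -161.2 for the untreated ones. Counts, medians and differences that turn on it are therefore also given without it. Because this is bulk tissue, fewer cells of a type and less RNA per cell cannot be told apart.

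In untreated testis 39 of the 40 genes were expressed. The mean level was above 100 FPKM in 13 members, from 10 to 100 FPKM in 24 and under 10 FPKM in 3. Ropn1l (Gene ID 252967) and Rsph1 (22092) were the most abundant, at 1095 ± 22.4 and 1082 ± 21.9 FPKM (SD, n = 3). The 11 dynein heavy chains ranged from 7.31 FPKM for Dnah12 to 342 FPKM for Dnah8. Rsph4a (212892), a spoke head protein known from cilia, read 0.06, 0.05 and 0.06 FPKM in Con, 0.07, 0.13 and 0.09 in Sa, 0.07, 0.03 and 0.13 in IMC, and 0.05, 0.28 and 0.14 in IMA10, and was not tested. The other 39 members passed the filter on low values.

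After busulfan and saline the members as a set lay well below the untreated level, with 38 of 39 tested genes lower in every Sa library than in every Con library. Over all genes tested, 31.3% were separated in that way. The median difference of the members in Sa minus Con was -1.97, against 0.60 over all genes. By the limma test, 16 of 39 members fell and none rose, where 19.2% of all genes tested fell and 52.0% rose. Those that fell by the most were Ropn1, Tekt5, Cfap58, Dnah3 and Tekt2. With median-of-ratios scaling, under which 39.2% of all genes fell and 37.7% rose and the median over all genes moved to -0.02, 38 members fell. The count rested on the spread that all groups share. It was 38 lower and 1 higher, Dnal1, whose direction turned with the scaling, without replicate 3 of IMA10 (30.0% of all genes lower and 55.7% higher), and 30 without replicate 1 of IMA10 (23.9% of all genes lower). It was 5, 7 and 7 without replicate 1, 2 or 3 of Con, where 13.2%, 12.9% and 12.9% of all genes fell. It was 10, 5 and 3 without replicate 1, 2 or 3 of Sa, where 16.4%, 14.4% and 13.1% of all genes fell. Without replicate 1 of Con, 2 of Sa or 3 of Sa, the members' share was thus near or below that of all genes. A fit on the libraries of Sa and Con alone gave 38 lower and 1 higher (30.8% and 56.0% of all genes).

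**Figure D1:**
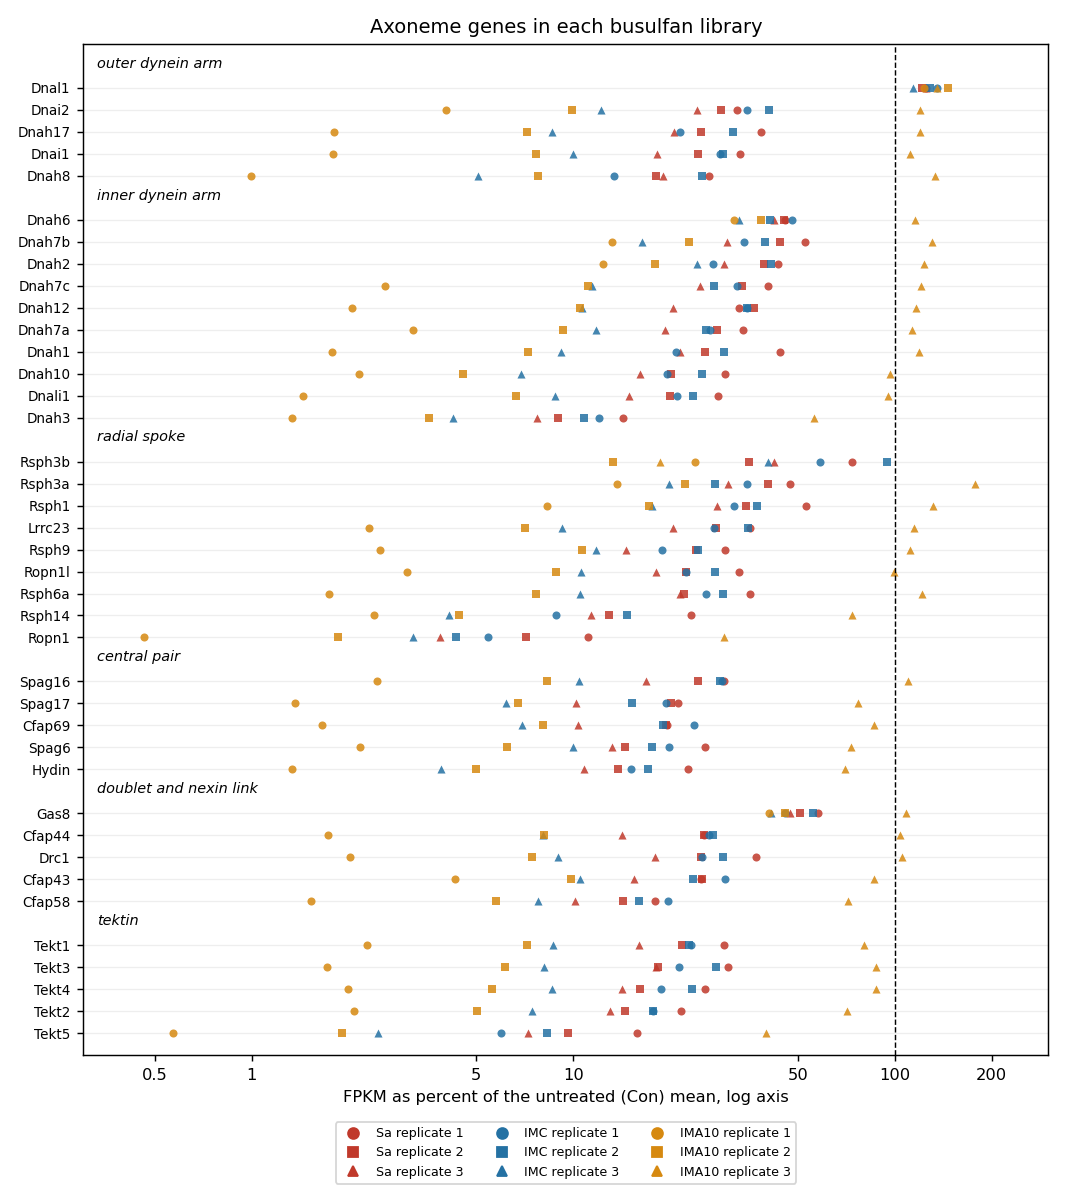
FPKM of each of the 39 tested members in each of the 9 busulfan libraries, as a percent of the mean of the 3 untreated libraries (dashed line at 100%, log axis), grouped by subcomplex. Circles, squares and triangles are replicates 1, 2 and 3. On the values as deposited, Sa and IMC lie below the line for all members but Dnal1, whose direction turns with other scalings. For most members IMA10 splits into replicates 1 and 2 at the far left and replicate 3 near the line. Exceptions include Rsph3b, Ropn1 and Tekt5, at 18.6%, 29.4% and 39.7% in replicate 3. Gas8 lies at 40.6% and 45.6% in replicates 1 and 2, and Dnal1 above 100% in each IMA10 library.

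The outer dynein arm was represented by 5 members. Dnah8 (13417), a heavy chain of the sperm outer arm, stood at 280.1, 366 and 379 FPKM in Con, at 90.5, 61.9 and 65.1 in Sa, at 45.8, 85.8 and 17.3 in IMC, and at 3.40, 26.6 and 455 in IMA10. All Sa and IMC libraries were thus below all Con libraries, while IMA10 held both the lowest and the highest value. The differences in Dnah8 were -2.23 ± 1.30 (SE) for Sa, with a limma adjusted p of 0.141, -3.02 for IMC and -3.16 for IMA10. Without replicate 3 of IMA10 the Sa difference was unchanged at -2.23 and its SE was 0.67, with a limma adjusted p of 0.00998, and the IMA10 difference was -4.95 ± 0.75.

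Dnah17 (69926), the second heavy chain of the sperm outer arm, read 64.5, 62.9 and 65.0 FPKM in Con and 24.6, 16.1 and 13.2 FPKM in Sa. It read 13.7, 20.1 and 5.5 FPKM in IMC and 1.16, 4.59 and 76.5 FPKM in IMA10. The group means had the same order as those of Dnah8. The intermediate chains Dnai1 (68922) and Dnai2 (432611), listed as Dnaic1 and Dnaic2 in the annotation used for names, sit at the base of the arm. Dnai1 had 58.8, 52.4 and 55.2 FPKM in Con, 18.3, 13.5 and 10.1 in Sa, 15.9, 16.2 and 5.55 in IMC, and 0.99, 4.26 and 61.9 in IMA10. Dnai2 had 58.3, 47.7 and 54.3 FPKM in Con, 17.2, 15.4 and 13.0 in Sa, 18.5, 21.7 and 6.50 in IMC, and 2.15, 5.28 and 64.1 in IMA10. Both intermediate chains were again below Con in every Sa and IMC library, and above it in 1 IMA10 library.

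Dnal1 (105000), a light chain of the outer arm that binds a heavy chain, was the exception among the 39. Its level was 3.65, 3.98 and 3.54 FPKM in Con, 4.64, 4.52 and 4.65 in Sa, 5.03, 4.78 and 4.23 in IMC, and 4.59, 5.44 and 5.03 in IMA10. No busulfan library overlapped Con, and replicates 1 and 2 of IMA10 lay near the other busulfan libraries. The difference in Dnal1 was 0.25 ± 0.14 (SE) in Sa (limma adjusted p = 0.125) and 0.35 ± 0.14 in IMA10 (limma adjusted p = 0.0421, and 0.0166 without replicate 3). The direction depended on the scaling: with median-of-ratios scaling the Dnal1 differences were -0.41 for Sa, -0.32 for IMC and -0.11 for IMA10, and with quantile normalization -0.50, -0.38 and -0.028.

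**Figure D2:**
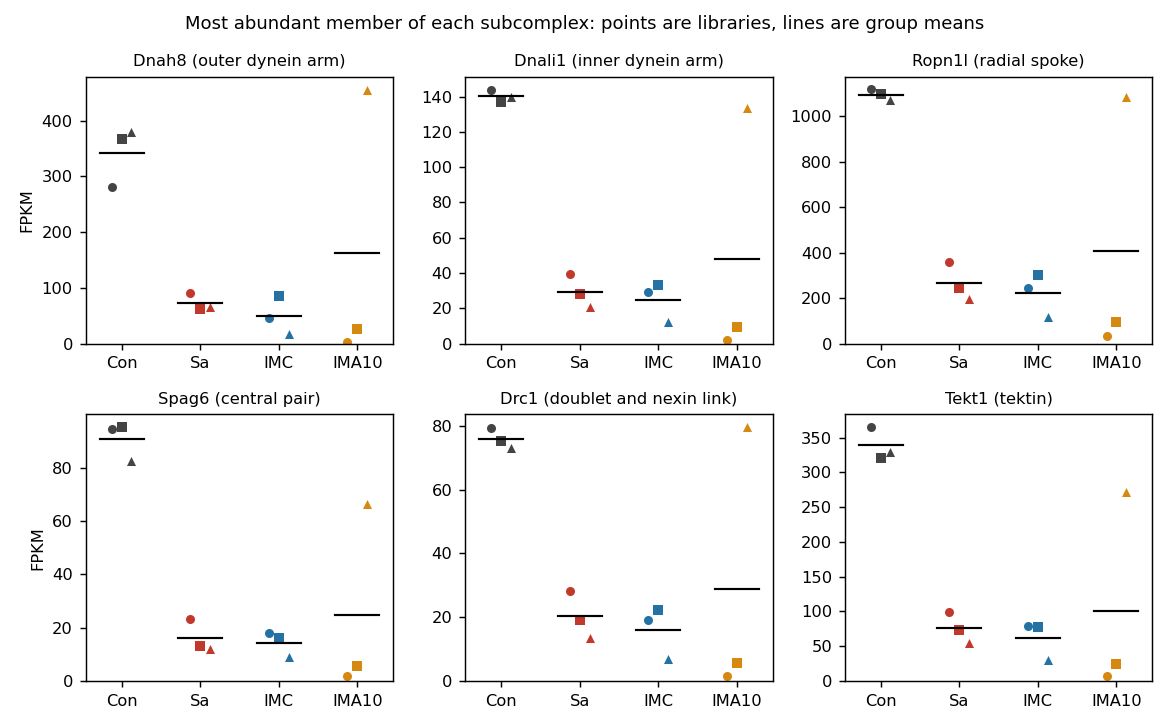
FPKM in each of the 12 libraries for the member with the highest untreated level in each of the 6 subcomplexes. Circles, squares and triangles are replicates 1, 2 and 3 and lines are group means. In each panel Sa and IMC lie below Con without overlap, and the IMA10 mean is set by its replicate 3.

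Of the 10 inner arm members, 3 fell in Sa: Dnah3, Dnah6 and Dnah10. Dnah3 (381917), an inner arm heavy chain, had the largest Sa and IMC differences of the subcomplex, with 12.6, 14.5 and 13.4 FPKM in Con, 1.93, 1.21 and 1.04 in Sa, 1.62, 1.46 and 0.57 in IMC, and 0.18, 0.48 and 7.57 in IMA10. Every busulfan library was below every Con library, replicate 3 of IMA10 included. The Dnah3 difference was -2.61 ± 0.61 (SE) in Sa (limma adjusted p = 0.0032) and -2.74 in IMC. In IMA10 it was -2.55 with all libraries and -3.45 without replicate 3.

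Dnah6 (330355), another inner arm heavy chain, had the smallest Sa difference of the subcomplex, at -1.09 ± 0.37 (SE) in Sa (limma adjusted p = 0.0232). It read 20.2, 18.9 and 21.9 FPKM in Con, 9.28, 9.17 and 8.54 in Sa, 9.71, 8.29 and 6.67 in IMC, and 6.44, 7.77 and 23.5 in IMA10. In replicate 1 of IMA10, where Dnah8 was at 0.995% of its untreated mean, Dnah6 was at 31.7%. Dnali1 (75563), the inner arm light chain and the most abundant inner arm member, stood at 143.9, 136.6 and 139.7 FPKM in Con and at 39.6, 28 and 20.9 FPKM in Sa. It stood at 29.4, 33.0 and 12.3 FPKM in IMC and at 2.02, 9.30 and 133.3 FPKM in IMA10. Its Sa difference of -2.26 ± 1.07 (SE) did not pass (limma adjusted p = 0.0788).

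Dnah7a (627872), Dnah7b (227058) and Dnah7c are near copies of 1 heavy chain gene. Pairs of them shared from 30.3% to 38.8% of their 50-base words in the GENCODE vM21 transcripts, so their split values are uncertain. Dnah7a read 14.4, 15.1 and 15.8 FPKM in Con, 5.09, 4.23 and 2.92 in Sa, 4.03, 3.91 and 1.78 in IMC, and 0.48, 1.40 and 17.1 in IMA10. Dnah7b read 10.9, 13.7 and 13.3 FPKM in Con, 6.65, 5.55 and 3.81 in Sa, 4.28, 4.99 and 2.07 in IMC, and 1.67, 2.90 and 16.5 in IMA10. Dnah7a was thus the higher of the pair in untreated testis, and Dnah7b in all Sa, IMC and IMA10 libraries but replicate 3 of IMA10. The remaining inner arm genes, Dnah1, Dnah2, Dnah7c, Dnah10 and Dnah12, had Sa differences from -1.85 (Dnah10) to -1.34 (Dnah2). Dnah2 and Dnah10 are the heavy chains of the double-headed inner arm.

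The radial spokes held the widest range of Sa differences. Ropn1l and Ropn1 (76378) carry the same kind of docking domain for A-kinase anchoring proteins and are bound to spokes and to the fibrous sheath. Ropn1l read 1117, 1095 and 1072 FPKM in Con, 358, 245 and 197 in Sa, 245, 303 and 116 in IMC, and 33.3, 96.6 and 1086 in IMA10. Ropn1 read 271, 265 and 268 FPKM in Con, 29.8, 19.1 and 10.4 in Sa, 14.6, 11.6 and 8.51 in IMC, and 1.24, 4.99 and 78.8 in IMA10. In replicate 3 of IMA10 Ropn1l was within the untreated range and Ropn1 was at 29.4% of its untreated mean. Ropn1 had the largest difference of all members, -3.81 ± 1.02 (SE) in Sa (limma adjusted p = 0.0068), -4.45 in IMC and -4.72 in IMA10, or -6.20 in IMA10 without replicate 3. Ropn1l had -2.08 ± 0.98 in Sa (limma adjusted p = 0.0791), -2.41 in IMC and -2.83 in IMA10, or -4.24 in IMA10 without replicate 3.

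Rsph3a (66832) and Rsph3b (100037282) encode a spoke stalk protein that anchors protein kinase A. They shared 74.0% and 73.4% of their 50-base words, so reads of both genes may have been split between them. Rsph3a stood at 230.0, 231 and 236 FPKM in Con, 109.5, 93.9 and 70.4 in Sa, 80.7, 64.2 and 46.1 in IMC, and 31.8, 51.8 and 412.5 in IMA10. Rsph3b stood at 89.4, 93.7 and 84.7 FPKM in Con, 65.8, 31.3 and 37.7 in Sa, 52.2, 84.5 and 36.1 in IMC, and 21.3, 11.9 and 16.6 in IMA10. Replicate 3 of IMA10 thus held the highest Rsph3a and the second lowest Rsph3b of all libraries. The sum of both genes was 319 to 325 FPKM in Con, 108.1 to 175.3 in Sa, 82.2 to 148.6 in IMC, and 53.1, 63.7 and 429 in IMA10. Rsph3b made up 26.4% to 28.9% of the sum in Con and 3.86% in replicate 3 of IMA10.

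Rsph6a (83434), the spoke head protein of sperm, read 139.4, 129.3 and 127.0 FPKM in Con, 46.7, 29.2 and 28.4 in Sa, 34.2, 38.4 and 13.9 in IMC, and 2.30, 10.1 and 159.8 in IMA10. Its Sa difference was -1.93 ± 1.09 (SE), with a limma adjusted p of 0.131. Of the spoke genes, 3 of the 9 tested fell in Sa, namely Ropn1, Rsph14 and Rsph3b. Rsph14 lay between 18.8 and 19.96 FPKM in Con, 2.21 and 4.55 in Sa, 0.80 and 2.87 in IMC, and 0.47 and 14.3 in IMA10. Rsph1 lay between 1065 and 1107 FPKM in Con, 303 and 572 in Sa, 189.8 and 403 in IMC, and 89.6 and 1416 in IMA10, so that in replicate 1 of IMA10 it was still at 8.28% of its untreated mean. Rsph1, Rsph9 and Lrrc23, which belong to spoke heads, had Sa differences of -1.43, -2.14 and -1.84 that did not pass.

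Of the 5 central pair genes, 4 fell in Sa: Cfap69, Hydin, Spag17 and Spag6. Spag6 (381350), an armadillo repeat protein of the central pair, read 94.6, 95.3 and 82.4 FPKM in Con, 23.4, 13.2 and 12 in Sa, 18.0, 16.0 and 9.09 in IMC, and 1.98, 5.64 and 66.3 in IMA10. Its near relative Spag6l (50525), which is not a member, read 183.2, 182.0 and 176.5 FPKM in Con, 65.1, 50.98 and 35.6 in Sa, 48.2, 54.1 and 17.2 in IMC, and 3.85, 14.7 and 216 in IMA10, above its Con range in that last library. Cfap69 (207686) read 54.3, 76.4 and 88.6 FPKM in Con, 14.3, 14.2 and 7.59 in Sa, 17.3, 13.9 and 5.06 in IMC, and 1.21, 5.87 and 62.9 in IMA10. Relative to its mean, Cfap69 was the most variable tested member in Con, and its IMA10 replicate 3 lay inside the untreated range. Spag16 (66722), a central pair scaffold protein, read 66.1, 66.3 and 67.1 FPKM in Con, 19.6, 16.2 and 11.2 in Sa, 19.3, 19.0 and 6.92 in IMC, and 1.63, 5.52 and 73.1 in IMA10. Its Sa difference of -2.05 was the smallest of the subcomplex and did not pass (limma adjusted p = 0.0772). Hydin, a very large protein of a central pair projection, read 32.3, 32.1 and 34.8 FPKM in Con and 7.54, 4.54 and 3.58 FPKM in Sa. Hydin and Spag17 had Sa differences of -2.50 and -2.44.

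Among the doublet and nexin link genes Cfap43, Cfap44, Cfap58 and Gas8 fell in Sa, 4 of 5. Drc1 (381738), a scaffold of the nexin-dynein regulatory complex, read 79.5, 75.4 and 73.2 FPKM in Con, 28.2, 19.0 and 13.6 in Sa, 19.2, 22.3 and 6.80 in IMC, and 1.54, 5.66 and 79.7 in IMA10. Its Sa difference was -1.91 ± 1.01 (SE), with a limma adjusted p of 0.108. Gas8 (104346), another subunit of that complex, had 53.6, 50.3 and 50.5 FPKM in Con, 29.7, 26.0 and 24.2 in Sa, 23.4, 28.6 and 21.1 in IMC, and 20.9, 23.5 and 55.5 in IMA10. In contrast to Drc1, Gas8 stayed above 40% of its untreated mean in every library. The Gas8 difference of -0.93 ± 0.31 (SE) in Sa passed (limma adjusted p = 0.0208).

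Cfap58 (381229), a coiled-coil protein, stood at 32.0, 40.7 and 39.1 FPKM in Con, 6.70, 5.33 and 3.78 in Sa, 7.35, 5.96 and 2.89 in IMC, and 0.57, 2.14 and 26.7 in IMA10. It had the largest Sa difference of the subcomplex, at -2.63 ± 0.83 (SE) (limma adjusted p = 0.0164). Cfap43 (100048534) and Cfap44 (212517) tether inner arm motor domains to the doublet. Cfap43 read 41.3, 50.2 and 52.7 FPKM in Con, 11.98, 12.06 and 7.41 in Sa, 14.3, 11.3 and 5.04 in IMC, and 2.07, 4.72 and 41.3 in IMA10. Cfap44 read 15.5, 16.7 and 18.3 FPKM in Con, 4.28, 4.28 and 2.39 in Sa, 4.44, 4.57 and 1.36 in IMC, and 0.29, 1.37 and 17.4 in IMA10. Cfap44 in replicate 3 of IMA10 lay inside the untreated range and Cfap43 at its lower edge. Their Sa differences were -2.12 and -1.97, with limma adjusted p-values of 0.0327 and 0.0462.

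Tekt2 (24084) and Tekt5 (70426) fell in Sa, and the other 3 tektins, Tekt1, Tekt3 and Tekt4, did not pass, at differences of -2.18, -2.18 and -2.45. Tekt1 (21689) was the most abundant at 366, 321 and 330.0 FPKM in Con, 99.4, 73.9 and 54.3 in Sa, 78.8, 77.8 and 29.4 in IMC, and 7.73, 24.3 and 271 in IMA10. Tekt3 (71062) read 149.0, 152.9 and 151.7 FPKM in Con, 45.9, 27.8 and 27.4 in Sa, 32.3, 41.9 and 12.3 in IMC, and 2.60, 9.28 and 132.1 in IMA10. All IMA10 libraries were below Con for both. Tekt5, a tektin of the sperm tail, read 118.0, 114.1 and 115.6 FPKM in Con, 18.3, 11.2 and 8.36 in Sa, 6.89, 9.63 and 2.87 in IMC, and 0.66, 2.21 and 46.0 in IMA10. The Tekt5 difference was -3.17 ± 0.99 (SE) in Sa (limma adjusted p = 0.0155), the second largest of the 39, and -4.09 in IMC. Tekt2 read 277, 265 and 250.02 FPKM in Con, 57.3, 38.3 and 34.4 in Sa, 46.8, 46.7 and 19.7 in IMC, and 5.49, 13.2 and 187.4 in IMA10. Tekt4 (71840) read 332, 313 and 283 FPKM in Con, 79.4, 49.96 and 43.8 in Sa, 58.1, 72.2 and 26.5 in IMC, and 6.16, 17.2 and 271 in IMA10. For Tekt2, Tekt4 and Tekt5 too, every busulfan library lay below every Con library.

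**Figure D3:**
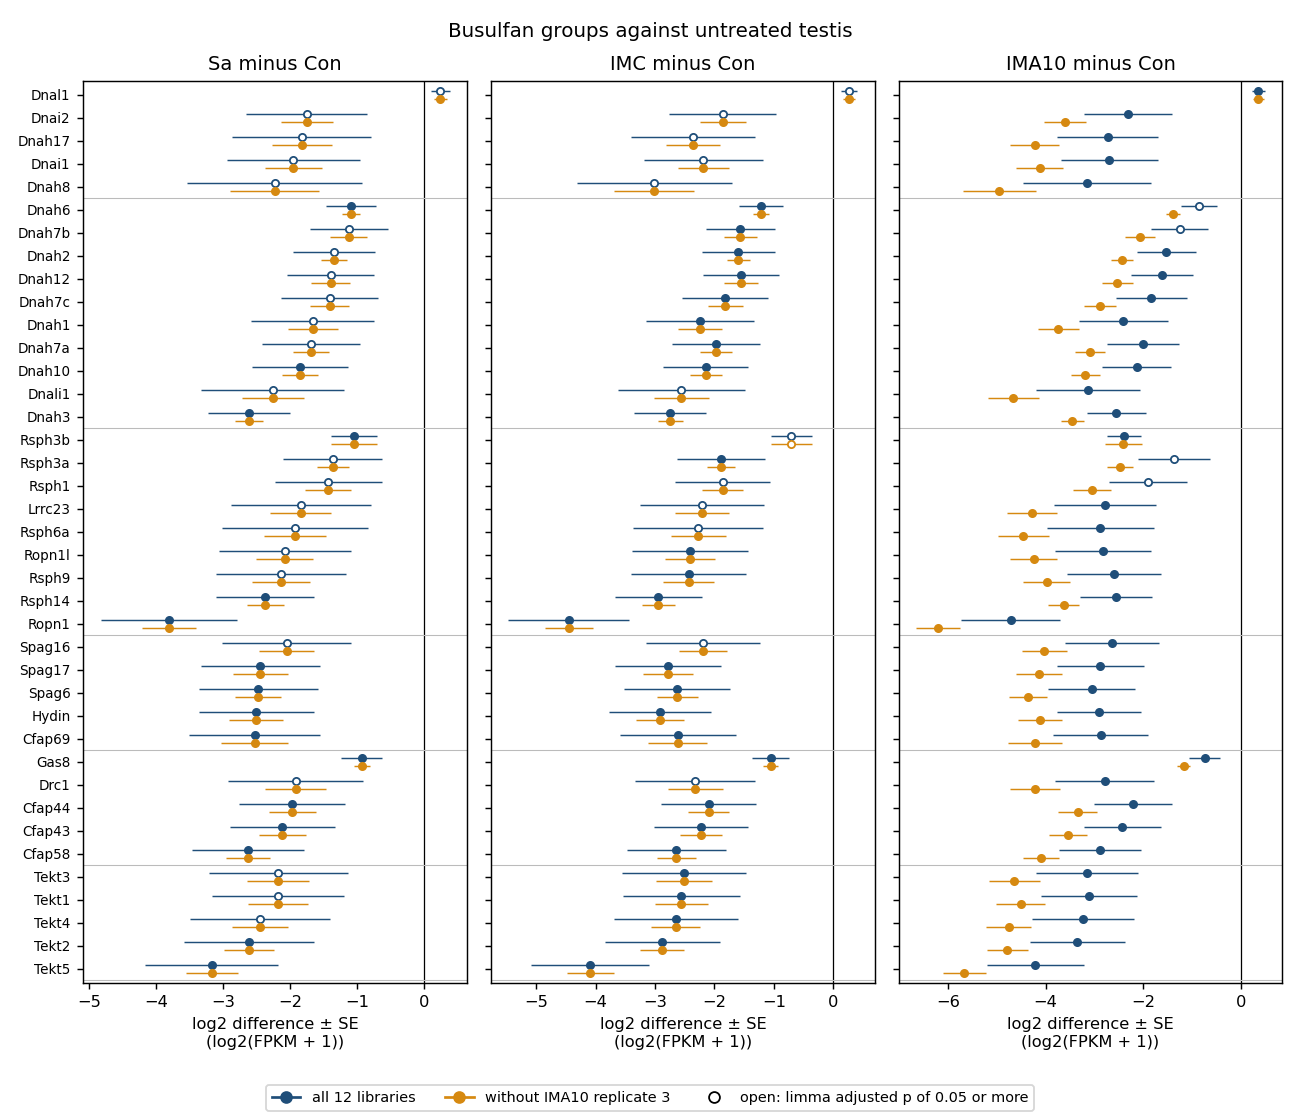
log2 difference of each busulfan group from Con with its SE for the 39 tested members, ordered by subcomplex (grey lines) and by the Sa difference, from all 12 libraries (blue) and without replicate 3 of IMA10 (orange). Open circles did not pass the limma test. The values for Sa and IMC are the same in both fits and their SE is smaller without that library. Those for IMA10 move further below 0, except Dnal1, which lies above 0 in both and below 0 with median-of-ratios scaling.

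By subcomplex, the median difference in Sa minus Con was -1.83 for the outer arm, -1.54 for the inner arm, -1.93 for the radial spokes, -2.47 for the central pair, -1.97 for the doublet and nexin link genes and -2.45 for the tektins. On the log2(FPKM + 1) scale, the central pair and tektins had the medians farthest below the untreated level and the inner arm the nearest. In IMC minus Con the same 6 medians were -2.19, -1.90, -2.28, -2.63, -2.23 and -2.65, again with the central pair and tektins lowest. Genes of 1 subcomplex share their libraries, so no test was made between subcomplexes, and the IMC and Sa differences share the untreated libraries. With median-of-ratios scaling the Sa medians were -2.61, -2.26, -2.72, -3.24, -2.70 and -3.24. The place of the inner arm depended on the scale. As percent of the untreated mean, its medians were 36.99%, 30.71% and 20.95% in Sa, against 33.03%, 25.04% and 20.53% for the outer arm. In IMC they were 26.97%, 28.34% and 11.06%, against 28.67%, 31.37% and 10.01%, so the outer arm lay nearer in replicates 1 and 2.

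In IMC minus Con, 27 of 39 members fell and none rose, where 23.3% of all genes tested fell and 50.8% rose. The median was -2.28, against 0.52 over all genes. All 5 tektins, 9 of 10 inner arm genes, 5 of 9 tested spoke genes, 4 of 5 central pair genes and 4 of 5 doublet and nexin link genes were among them, and 0 of the 5 outer arm genes. The outer arm median was nevertheless -2.19, against -1.90 for the inner arm. Its count was 4 lower and 1 higher without replicate 3 of IMA10 (32.2% and 53.7% of all genes). With median-of-ratios scaling 5 of the 5 outer arm genes fell (40.6% of all genes). Every IMC library was below every Con library in 38 of 39 members, against 33.2% of all genes. Without replicate 3 of IMA10 the count was 37 lower and 1 higher (32.2% and 53.7% of all genes). With median-of-ratios scaling it was 39 lower, Dnal1 included, where 40.6% of all genes fell. It was 11, 10 and 12 without replicate 1, 2 or 3 of Con, where 15.7%, 15.4% and 15.3% of all genes fell. It was 14, 17 and 6 without replicate 1, 2 or 3 of IMC, where 18.9%, 19.8% and 14.6% of all genes fell, so that without replicate 3 of IMC the members were near the share of all genes.

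In IMA10 minus Con, 34 of 39 members fell, against 23.9% of all genes. In the same fit Dnal1 rose, where 47.7% of all genes rose, but with median-of-ratios scaling Dnal1 lay at -0.11 and 38 members fell. The median was -2.64 with all libraries and -4.03 without replicate 3, against 0.41 and 0.47 over all genes. Without replicate 3, 38 fell and 1 rose (35.0% and 51.6% of all genes). The libraries of the groups did not overlap in 16 members with replicate 3 (18.1% of all genes) and in 38 without it (37.1% of all genes). The count of lower members was 15, 13 and 12 without replicate 1, 2 or 3 of Con, where 15.5%, 15.1% and 14.8% of all genes fell. It was 9 and 8 without replicate 1 or 2 of IMA10, where 14.3% and 14.1% of all genes fell. A fit on the libraries of IMA10 and Con alone gave 4 of 39, near the 11.9% of all genes that fell. Without replicate 3 the tektins were at a median of -4.76, the central pair at -4.14 and the inner arm at -2.99. These gaps depend on the log2(FPKM + 1) scale, which understates the change of genes with low values. As percent of the untreated mean, tektins, central pair and inner arm had medians of 1.99%, 1.655% and 2.37% in replicate 1. In replicate 2 the medians were 5.57%, 6.71% and 9.90%.

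The 3 IMA10 libraries were far apart. In replicate 1 the median member stood at 2.15% of its untreated mean and 31 of 39 members were under 5%. In that library the lowest was Ropn1 at 0.463%, and those over 10% were Dnal1, Gas8, Dnah6, Rsph3b, Rsph3a, Dnah7b and Dnah2. In replicate 2 the median was 7.68%, and in replicate 3 it was 104.9%. In replicate 3, 18 members were above the highest Con library, 5 within the untreated range and 16 below the lowest. The members under 60% there were Rsph3b, Ropn1, Tekt5 and Dnah3, and the highest was Rsph3a at 177.5%. Subcomplex medians in replicate 3 were 119.9% for the outer arm, 116% for the inner arm, 111.3% for the spokes, 103.4% for the doublet and nexin link genes, 80% for the tektins and 76.7% for the central pair.

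The medians of the other busulfan libraries lay between those of replicates 2 and 3 of IMA10. They were 30.3%, 24.3% and 18.0% in Sa and 23.7%, 27.3% and 9.21% in IMC. Replicate 3 of IMC was thus close to replicate 2 of IMA10. The order of the members by level was largely kept: Spearman's rho of the 39 levels with the untreated means was 0.896 to 0.945 in Sa, 0.857 to 0.901 in IMC, and 0.643, 0.816 and 0.938 in IMA10. These correlations run across genes, which share a library and are not independent replicates.

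Between the busulfan groups no member passed. In IMC minus Sa, 0 of 39 members and 0.0% of all genes passed, and at an unadjusted p under 0.05 limma gave 0 members and 134 of all genes. The median over the members was -0.30, against -0.06 over all genes, and the libraries of IMC lay all below those of Sa in 0 members (6.02% of all genes). In IMA10 minus Sa, 0 of 39 and 0.0% of all genes passed, with 1 member, Rsph3b, among 928 genes at an unadjusted p under 0.05. Rsph3b was at -1.35 ± 0.35 (SE), with a limma adjusted p of 0.640, and was the only member whose IMA10 libraries were all below its Sa libraries (7.17% of all genes). Without replicate 3 of IMA10, 36 of 39 members fell against Sa, where 24.7% of all genes fell and 7.38% rose, with a median of -1.70 against -0.13 over all genes. The 3 that did not pass were Dnal1, Dnah6 and Gas8, at 0.10, -0.31 and -0.25.

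In IMA10 minus IMC, 0 of 39 members and 0.0% of all genes passed, and limma gave 1 member, Rsph3b, among 328 genes at an unadjusted p under 0.05. Without replicate 3, 0 members passed among 2 genes in all (0.013% of all genes), with a median of -1.55 over the members against -0.07 over all genes. At an unadjusted p under 0.05 it gave 34 members and 4048 of all 15412 genes (26.3%). The IMA10 libraries were all below the IMC libraries in Rsph3b alone (2.88% of all genes) and, without replicate 3, in 28 (23.7%). The comparisons of IMA10 with Sa and with IMC share their IMA10 libraries.

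Ratios within families were compared over the 9 busulfan and 3 untreated libraries by an exact two-sided permutation test, which allows no p below 0.0045, with adjustment over 10 pairs. Ropn1 over Ropn1l had a log2 ratio of -2.05 to -2.0 in Con, -4.13 to -3.55 in Sa, -4.59 to -3.62 in IMC and -4.03 to -3.77 in IMA10. All 9 busulfan libraries were below all 3 untreated ones, replicate 3 of IMA10 included. The Ropn1 over Ropn1l difference was -1.89 (exact permutation p = 0.0045, adjusted 0.0227). Tekt5 over Tekt1 was -1.62 to -1.49 in Con and -3.34 to -2.38 in the busulfan libraries, again without overlap. The Tekt5 over Tekt1 difference was -1.20 (exact permutation p = 0.0045, adjusted 0.0227). These are the pairs that passed with all libraries. Their differences without replicate 3 of IMA10 were -1.90 for Ropn1 over Ropn1l and -1.23 for Tekt5 over Tekt1. Leaving out any 1 untreated library raises the smallest p that the test allows, and both pairs then had an adjusted p of 0.0909.

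**Figure D4:**
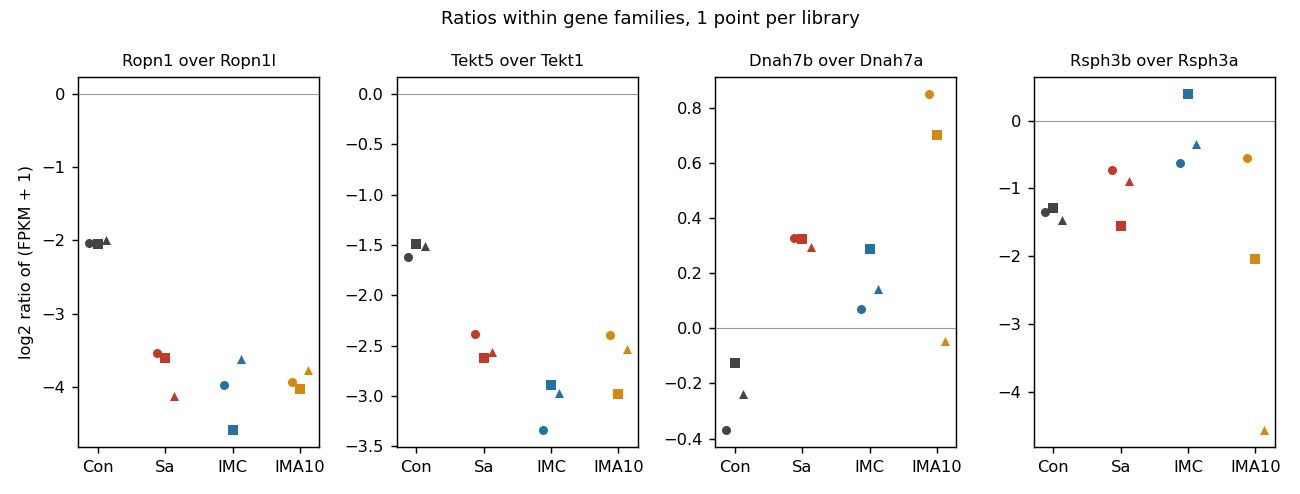
log2 ratio of (FPKM + 1) within 4 gene families in each of the 12 libraries, as circles, squares and triangles for replicates 1, 2 and 3. Ropn1 over Ropn1l and Tekt5 over Tekt1 lie below the untreated libraries in all 9 busulfan libraries, Dnah7b over Dnah7a lies above them, and Rsph3b over Rsph3a has no common direction.

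Of the other 8 pairs, Dnah7b over Dnah7a was 0.57 higher in the busulfan libraries (exact permutation p = 0.0182, adjusted 0.0606), with 9 of 9 above the untreated ones. Without replicate 3 of IMA10 it passed, at 0.62 (adjusted exact permutation p = 0.0202). Rsph6a over Rsph4a differed by -2.43 (exact permutation p = 0.0364, adjusted 0.0727), with Rsph4a near 0 throughout. Without replicate 3 of IMA10 this ratio was at -2.75 (adjusted exact permutation p = 0.0303). As Rsph4a read 0.03 to 0.28 FPKM, the ratio follows the level of Rsph6a almost alone. It cannot show whether the 2 genes differ in their change. Cfap43 over Cfap44 differed by -0.16 (exact permutation p = 0.0318, adjusted 0.0727), and by 0.13 with a pseudocount of 0.1. Dnai1 over Dnai2 differed by -0.30, Tekt4 over Tekt2 by 0.17, Dnah8 over Dnah17 by -0.49 and Spag6l over Spag6 by 0.39, with adjusted exact permutation p-values of 0.0833, 0.0974, 0.136 and 0.141. Without replicate 3 of IMA10 these 4 were -0.32, 0.15, -0.58 and 0.35, Cfap43 over Cfap44 was -0.15, and none of the 5 passed. Rsph3b over Rsph3a differed by 0.16 (exact permutation p = 0.854), by -0.04 without replicate 2 of IMC and by 0.58 without replicate 3 of IMA10.

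The axoneme genes were set beside marker lists of germ cell stages and of other cells. The medians of 9 pachytene spermatocyte markers were 34.1%, 25.9% and 18.0% of the untreated mean in Sa, 27.9%, 28.2% and 10.8% in IMC, and 2.29%, 8.18% and 98.4% in IMA10. These medians ran near those of the axoneme members in each library, but the list was not uniform. Its Sa differences ran from -4.84 to 0.32, with 8 of the 9 below 0. H1f7, placed in this list without a test of its stage, read 411, 384 and 440 FPKM in Con and 25.8, 18.2 and 4.76 in Sa. Its Sa difference of -4.84 was also within the ranges of the round spermatid markers (-5.01 to -2.71) and elongating spermatid markers (-5.95 to -4.56). Calr3 read 69.1, 69.6 and 74.9 FPKM in Con and 7.90, 6.62 and 4.69 in Sa. The 8 round spermatid markers had 14.8%, 9.75% and 7.33% in Sa, 11.8%, 8.47% and 4.86% in IMC, and 1.5%, 4.17% and 46.8% in IMA10. The 10 elongating spermatid markers had 5.71%, 3.91% and 0.825% in Sa, 1.09%, 0.915% and 0.525% in IMC, and 0.126%, 0.310% and 9.98% in IMA10. The lists whose medians lay above the untreated level were those of spermatogonia, Sertoli cells and Leydig cells. The 8 spermatogonia markers had medians of 515%, 466% and 494% in Sa, 284%, 428% and 316% in IMC, and 147.9%, 267% and 217% in IMA10. Not all 8 moved alike. In Sa minus Con 7 rose (52.0% of all genes) and 1 lay below 0. In IMA10 minus Con 4 rose (47.7% of all genes) and 1 fell (23.9%), namely Gfra1 at -1.03. The 10 Sertoli cell markers stood at 1395% to 2562% in the busulfan libraries other than replicate 3 of IMA10, where they stood at 442%. The 7 Leydig cell markers stood at 690.4% to 1848% in those libraries and at 267% in replicate 3 of IMA10. The part of these lists in the axoneme values was not tested.

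**Figure D5:**
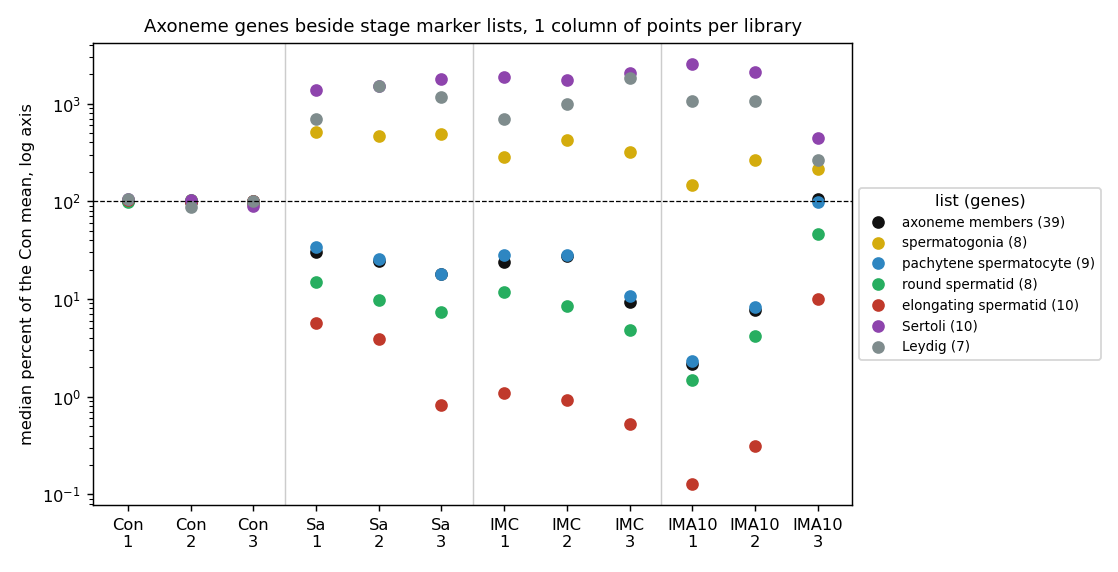
Median percent of the untreated mean (log axis) in each of the 12 libraries for the 39 tested axoneme members and for 6 marker lists, with the number of genes in the key. In the busulfan libraries the axoneme median lies next to that of the pachytene spermatocyte markers, whose single genes differ widely. It lies above the medians of the round and elongating spermatid markers. The medians of the spermatogonia, Sertoli cell and Leydig cell markers lie above the dashed line at 100% in the busulfan libraries.

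Cells with motile cilia could also contribute axoneme transcripts. Of the 10 markers of ciliated epithelium in the table, 7 were under 1 FPKM in all 12 libraries. Dnah5, the outer arm heavy chain of motile cilia, lay between 0.01 and 0.21 FPKM. The summed level of the 10 was 62.0 to 68.4 FPKM in Con, 13.0 to 20.6 in Sa, 10.2 to 18.4 in IMC and 4.36 to 53.9 in IMA10. Foxj1, a ciliary regulator that germ cells also express and that is also in the list of regulators, supplied 56.96 to 63.8 FPKM of it in Con. The part of such cells in the axoneme values was not tested beyond these levels. Of 6 epididymis markers 4 were in the table and 3 of these were under 1 FPKM in all libraries, with a sum of 4.07 to 4.28 FPKM in Con and 0.16 to 5.28 FPKM after busulfan.

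A further list held 45 genes for other axoneme parts and for dynein assembly factors, of which 44 were in the table and 42 were tested. In Sa minus Con 10 of 42 fell and none rose, with a median of -1.89, where 19.2% of all genes fell and their median was 0.60. The Sa count was 42 without replicate 3 of IMA10 (30.0% of all genes). In IMC minus Con 28 fell (23.3% of all genes), and in IMA10 minus Con 34 fell (23.9%), or 42 without replicate 3 (35.0%). Those with the smallest p in Sa were Dnah9, an outer arm heavy chain of cilia, at -0.76 (limma adjusted p = 0.0028), Armc4, an outer arm docking protein, at -2.11 ± 0.70 (SE), and Nme8 at -2.65 ± 0.91. Nme8 encodes a thioredoxin domain protein of the outer arm.

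A list of 10 regulators of ciliary and spermatid genes included the RFX factors, which bind the X-box of ciliary gene promoters. In Sa minus Con 6 of the 10 fell and none rose, with a median of -1.96, where 19.2% of all genes fell and their median was 0.60. The differences ran from -2.68 to 0.75, with 9 of the 10 below 0. Taf7l was the highest, at 15.45, 18.84 and 18.41 FPKM in Con and 38.58, 30.83 and 22.93 in Sa. The Sa count was 8 without replicate 3 of IMA10 (30.0% of all genes). In IMC minus Con 7 fell (23.3% of all genes), and in IMA10 minus Con 8 fell (23.9%), or 9 without replicate 3 (35.0%). Rfx3 read 5.16, 5.19 and 5.43 FPKM in Con and 1.48, 1.32 and 0.99 in Sa, a difference of -1.47 ± 0.27 (SE) with a limma adjusted p of 8.91e-04. Rfx1 was at -1.94 ± 0.48 (limma adjusted p = 0.0046). Sox30, a factor needed for spermatid gene expression, was at -2.68 ± 0.89 (limma adjusted p = 0.0201).

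The promoters of the members were searched on both strands for motifs of such factors, in the 250 bases before the RefSeq start sites (GRCm38.p6). A promoter was found for 37 of the 40 members. GTTGCC, a half-site of the X-box, was present in 16 of these 37 (43.2%), against 11.8% of 27025 genes. It lay in the promoters of Tekt1, Tekt2, Hydin, Spag6, Spag16, Dnah7a, Dnah7b, Dnah7c, Dnah10, Dnai2, Ropn1l, Lrrc23, Cfap44, Cfap58, Drc1 and Gas8. Dnah7a, Dnah7b and Dnah7c are near copies, so their matches may not be independent. The genes compared with were all those with a promoter entry, whether expressed in testis or not. The full X-box, which can overlap GTTGCC, was found in Spag16 and Lrrc23 (5.41%, against 0.962% of genes). The cAMP response element TGACGTCA was found in Dnah6 (2.70%, against 1.77%), and the forkhead motif GTAAACA in Cfap43, Dnah17 and Tekt3 (8.11%, against 3.54%). A match describes the letters only, and its part in the change after busulfan was not tested. The windows below show 1 match from each of 6 members of different subcomplexes, 5′ to 3′ on the strand of the gene with the motif in capitals. Tekt2 lies at chr4:126325693-126325722 (minus strand), Dnai2 at chr11:114727381-114727410 (plus), Dnah10 at chr5:124725053-124725082 (plus), Ropn1l at chr15:31453692-31453721 (minus), Cfap58 at chr19:47937641-47937670 (plus) and Spag16, with the whole X-box in capitals, at chr1:69826859-69826888 (plus).
Tekt2: gggcggttgctcGGCAACcagagccgcaaa
Dnai2: ccagggttgctaGGCAACtggtaaactccg
Dnah10: cgcgctggcgccGTTGCCcaggtccccgtt
Ropn1l: tgcgcagctcggGTTGCCtggagaccgcac
Cfap58: gggggcgtggcgGTTGCCaggcgaccgaag
Spag16: ggcaacgcGTTGCCGTAGTAACtgcggacg
GGCAAC is GTTGCC read on the opposite strand.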

How the data were processed

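The deposited table holds FPKM values for 12 libraries, named so by the authors per the file headers and given to 2 decimals. For the aligner, counting tool, use of strand, genome build and annotation, the entry is: not given in the sources used here. No counts were used, so depth is unknown and no counting interval is given. FPKM summed to between 569055 and 576093 in the untreated libraries and between 476127 and 519355 in the busulfan libraries. Of 20288 numeric gene IDs, 20141 matched the RefSeq gene table (GRCm38.p6, used for names and neighbours), and 1933 further rows are new genes without an ID.

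Genes with at least 1 FPKM in 3 libraries were tested on log2(FPKM + 1) with limma 3.58.1 in R 4.3.3, with a variance trend and 1 mean per group over all 12 libraries. p-values were adjusted by Benjamini-Hochberg over all 15472 genes, with a threshold of 0.05. The script was tested on simulated data. Their spread was taken without replicate 3 of IMA10, so the test does not check the counts fitted with that library. Pairs were tested by exact permutation over libraries (numpy 2.4.6), and Spearman's rho was taken with scipy 1.17.1. Named genes are, in each subcomplex, the member highest in Con, those with the lowest and highest Sa difference, the members of the pairs and the untested member. From other lists at most 3 genes with the smallest p are named. Dnah5, Gfra1 and Taf7l are named outside that rule. Values for further members, the motif search and the comparison of shared 50-base words were chosen after values were seen. The members and lists were chosen with earlier results of these data known. Dnah17, Dnai1, Dnali1, Rsph1, Rsph9, Rsph14 and Spag17 overlap other genes of the table, so without strand their reads cannot be told apart from those of the overlapping gene.

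Alternatives were median-of-ratios scaling, quantile normalization, a pseudocount of 0.1, no filter, a filter of 5 FPKM, a fit on the groups compared, a replicate block and leaving out each library.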

Additional observations from a re-analysis of the deposited data

How the results depend on the processing

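The count of members lower in Sa minus Con, 16 as reported, was 38 with median-of-ratios scaling, 38 in a fit on the groups compared and 3 to 38 when 1 library was left out. The count higher, 0 as reported, was 1 in a fit on the groups compared and 0 to 1 when 1 library was left out. In IMC minus Con the count lower, 27, was 16 with no filter and 6 to 37 when 1 library was left out, and the count higher, 0, was 1 on the groups compared and 0 to 1 when 1 library was left out. In IMA10 minus Con the count lower, 34, was 21 with no filter, 4 on the groups compared and 8 to 38 when 1 library was left out. The count higher, 1, was 0 with median-of-ratios scaling, with quantile normalization and on the groups compared, and 0 to 1 when 1 library was left out. In IMA10 minus Sa the count lower, 0, was 0 to 36 when 1 library was left out.

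With a replicate block the counts lower were 10, 13 and 18 for Sa, IMC and IMA10 minus Con, and the count higher in IMA10 was 0. Libraries share only a number: correlations of same-numbered deviations were -0.02, -0.01 and -0.18 for Sa and Con, -0.12, 0.05 and -0.14 for IMC and Con, 0.14, 0.05 and 0.14 for IMA10 and Con, and 0.31, -0.09 and 0.55 for IMC and Sa. They were -0.65, 0.11 and -0.67 for IMA10 and Sa and -0.44, -0.54 and -0.77 for IMA10 and IMC. In no comparison were all 3 over 0.1, and no label pairs the libraries.

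Subcomplex medians in Sa minus Con with median-of-ratios scaling were -2.61 (outer arm), -2.26 (inner arm), -2.72 (spokes), -3.24 (central pair), -2.70 (doublet and nexin link) and -3.24 (tektins). With quantile normalization the inner arm was at -2.06 and the doublet and nexin link genes at -2.31. Dnal1 reversed to -0.41, -0.32 and -0.11 (Sa, IMC and IMA10 minus Con) with median-of-ratios scaling and to -0.50, -0.38 and -0.028 with quantile normalization.

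When 1 library was left out, pair differences ranged from -1.93 to -1.80 (Ropn1 over Ropn1l), -1.25 to -1.13 (Tekt5 over Tekt1), -2.75 to -2.07 (Rsph6a over Rsph4a), -0.34 to -0.25 (Dnai1 over Dnai2), 0.51 to 0.63 (Dnah7b over Dnah7a), -0.21 to -0.13 (Cfap43 over Cfap44), 0.14 to 0.20 (Tekt4 over Tekt2) and -0.038 to 0.58 (Rsph3b over Rsph3a, -0.038 without replicate 2 of IMC and 0.58 without replicate 3 of IMA10). With a pseudocount of 0.1 Cfap43 over Cfap44 was 0.13. The cause of these moves was not tested, other than fewer libraries or genes by construction. Unknown depth limits what can be said of values under 1 FPKM.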
